A study of Mus musculus with 6 samples.

Results

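The genes described here encode the PI3K, Akt and phosphoinositide signalling machinery, and they were examined through the accessible chromatin assigned to them in mouse regulatory T cells (Treg cells). The 38 genes were taken from a fixed list of names, and all 38 were found among the 21900 protein-coding genes of the RefSeq table. A peak belonged to a gene when its midpoint lay in the gene body, or when it lay between genes and that gene was the nearest protein-coding gene within 100 kb. By this rule the members held 266 of the 38258 peaks of the WT list and 253 of the 36182 peaks of the KO list.

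The assay was ATAC-seq, in which a transposase cuts open chromatin and the cut sites are sequenced. The WT group was Bcl11b w/w Foxp3-IRES-YFP-Cre and the KO group Bcl11b f/f Foxp3-IRES-YFP-Cre, with 3 samples each, all on the C57BL/6 background. Bcl11b is a zinc-finger transcription factor of the T cell lineage. Both groups carry the Cre recombinase and the YFP reporter under control of the Foxp3 locus, so deletion in the KO group is expected where Foxp3 is or has been expressed, and the controls share the transgene. Cells were sorted as CD4+YFP+ from spleen and draining lymph nodes, and 100000 cells were lysed per sample. The age of the animals is not given in the sources used here. Each group has 1 peak list for its 3 samples, with no value per sample, so no difference between WT and KO has a replicate check and no p-value is given. A site open in fewer cells and a site less open in each cell cannot be told apart in such lists.

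Class I PI3K phosphorylates a membrane inositol lipid to make PIP3, which brings Akt to the membrane for activation. Lipid phosphatases such as SHIP1 remove the product, and phospholipase C competes for the same substrate, cutting it into diacylglycerol, which activates protein kinase C, and IP3, which opens calcium channels of the endoplasmic reticulum. In Treg cells, restraint of PI3K and Akt signalling is known to help maintain Foxp3 expression and lineage stability.

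The labelled cell type was checked against marker genes. Of 4 T cell markers, 3 had a peak within 1 kb of a gene end in each list, as did 3 of 4 Treg markers, with Foxp3 itself holding 1 peak away from its ends. Among B cell markers, Ms4a1 and Cd79a held no peak in either list, and Pax5 held 2 WT-list and 4 KO-list peaks, none at a gene end. Of the 2 natural killer cell markers, Ncr1 held no peak, and Klrb1c held 6 WT-list and 5 KO-list peaks, none at a gene end. Of the 2 CD8 T cell markers, Cd8a held no peak, and Cd8b1 held 2 WT-list peaks and 1 KO-list peak, of which 1 per list lay at a gene end. Of 4 myeloid markers, Spi1 and Cd14 had a peak at a gene end in both lists, Lyz2 had 1 WT-list peak elsewhere, and Csf1r had none. The part of other cells in the results was not tested. The lists differ in their usual peak width, 219 bp for WT and 193 bp for KO, and every peak has the same deposited score of 1. The row position of a peak, in percent of its list with 0% as the first row, was therefore used as the only measure of order. It follows the numbers in the peak names on each chromosome (Spearman correlation across peaks of 0.991 or higher), but no label says that it ranks peaks by strength.

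Across the 38 genes, 178 sites were shared by the lists, meaning that the peaks overlapped by at least 1 bp, 88 were WT-only and 75 were KO-only. WT-only peaks made up 33.1% of the members' WT peaks (exact 95% Clopper-Pearson interval 27.5 to 39.1%, counting error only), against 28.4% of all assigned WT peaks. KO-only peaks made up 29.6% of their KO peaks (24.1 to 35.7%), against 24.8%. Of the peaks found in 1 list only, 46.0% were KO-only (38.2 to 54.0%), where all assigned peaks gave 45.4%. The pathway as a whole thus stood near the background in the balance between the genotypes. KO-only peaks outnumbered WT-only ones in 10 members, WT-only peaks were the more frequent in 15, and 13 had equal numbers. Over all genes with a peak these outcomes took 20.3%, 26.9% and 52.8%. A surplus of at least 2 KO-only peaks was found at 5 members, Pik3cd, Pik3r5, Inpp5d, Itpr1 and Itpkb, and such a surplus occurred at 5.22% of all genes with a peak. A surplus of at least 2 WT-only peaks was found at 7 members, Pik3r1, Inpp4b, Sgk3, Plcb1, Pip4k2a, Pip5k1c and Tec, against 8.08% of all genes. Members held more sites than most genes, with a median of 5.5 against 2, and were longer, with a median of 97.3 kb against 17.1 kb. Among genes with 4 or more peaks found in 1 list only, 3 of 15 members had the KO-only surplus (21.0% of all such genes) and 4 of 15 the WT-only surplus (38.9%).

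**Figure D1:**
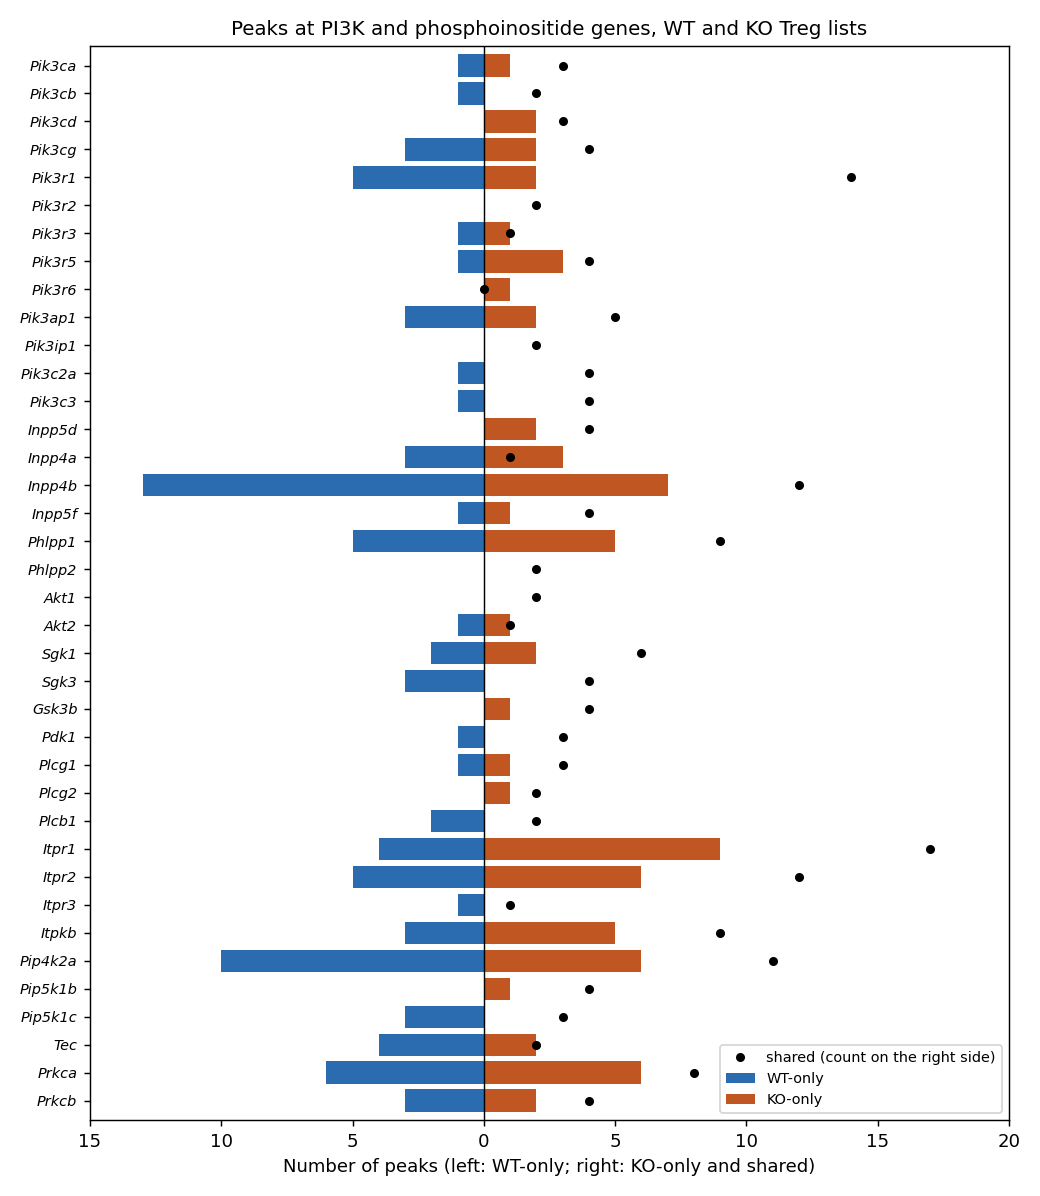
Number of peaks at each of the 38 genes, ordered by role, with WT-only peaks to the left (blue), KO-only peaks to the right (orange) and shared sites as black points counted on the right side. Inpp4b and Pip4k2a reach furthest to the left with 13 and 10 WT-only peaks, and Itpr1 furthest to the right with 9 KO-only peaks and 17 shared sites.

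The start sites were compared in RefSeq promoter windows (GRCm38.p6, 250 bases before to 50 bases after an annotated start), which were found for 33 members with 51 windows. In 23 of the 33 members (69.7%) a window held a peak in both lists, against 8191 of 27025 genes with a window (30.3%). Those 27025 genes outnumber the 21900 protein-coding ones, so they include other gene types, while all members are protein-coding. The shares given below over all promoter windows rest on the same mixed set. Of the 51 single windows, 25 (49.0%) held a peak in both lists, against 27.5% of all 32851 windows. Another 22 (43.1%) held none, against 67.5%. No member window held a peak of the WT list alone, against 2.71% of all windows. A peak of the KO list alone was held by 4 windows (7.84%, against 2.38%), at Inpp4a, Phlpp1 and Pik3r5. The 2 Inpp4a windows among them overlapped and lay under the same KO peak. At Phlpp1 and Pik3r5 the KO peak overlapped a WT peak lying just outside the window. The 7 members with no peak in any window were Plcb1, Pik3cd, Pik3r2, Plcg2, Pik3ip1, Akt1 and Pik3r1. An empty window did not mean a closed start. The nearest WT-list and KO-list peaks lay 5 and 116 bp outside a window at Plcg2, 14 and 191 bp at Pik3r2, and 30 and 23 bp at Pik3r1. The gaps were 146 and 316 bp at Akt1, and 421 and 344 bp at Pik3cd. They were larger at Pik3ip1 (1540 and 1555 bp) and Plcb1 (104206 and 112194 bp). The window of Tec, a non-receptor tyrosine kinase that binds PIP3, was the only one covered by different peaks in the 2 lists. The peaks covered opposite ends of the window chr5:72868399-72868698 (minus strand). The sequences are shown to mark the bases each list called open, in capitals, first under the WT peak (bases 1 to 173) and then under the KO peak (bases 217 to 300), with the annotated start after base 250.
Tec, WT peak: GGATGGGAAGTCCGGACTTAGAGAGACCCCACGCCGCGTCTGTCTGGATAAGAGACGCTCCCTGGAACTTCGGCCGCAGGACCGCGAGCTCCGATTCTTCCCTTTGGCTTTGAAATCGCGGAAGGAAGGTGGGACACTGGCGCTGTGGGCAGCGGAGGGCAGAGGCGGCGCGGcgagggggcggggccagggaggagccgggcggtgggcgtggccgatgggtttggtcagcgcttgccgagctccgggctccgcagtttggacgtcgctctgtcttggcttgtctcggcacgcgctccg
Tec, KO peak: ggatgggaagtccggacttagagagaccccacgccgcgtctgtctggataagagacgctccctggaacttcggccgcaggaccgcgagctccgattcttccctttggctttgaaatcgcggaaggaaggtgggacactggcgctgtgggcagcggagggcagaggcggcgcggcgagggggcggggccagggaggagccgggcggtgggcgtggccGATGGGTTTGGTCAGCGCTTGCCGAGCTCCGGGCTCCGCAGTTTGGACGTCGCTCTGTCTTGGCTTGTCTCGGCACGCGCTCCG
The Tec peaks lay 43 bp apart, at rows 23.0% (WT) and 16.2% (KO), so both stood in the first 25% of their list. The promoter window was called open in each genotype at adjoining positions. Only the KO peak covered the annotated start, and the WT peak lay upstream of it. At Inpp4a, which encodes an inositol lipid phosphatase, the KO-only peak (row 37.7%) covered bases 41 to 233 of the window chr1:37299588-37299887 (plus strand), and the WT-only peak (row 36.0%) began 90 bp past the window, within the gene.
Inpp4a, KO peak: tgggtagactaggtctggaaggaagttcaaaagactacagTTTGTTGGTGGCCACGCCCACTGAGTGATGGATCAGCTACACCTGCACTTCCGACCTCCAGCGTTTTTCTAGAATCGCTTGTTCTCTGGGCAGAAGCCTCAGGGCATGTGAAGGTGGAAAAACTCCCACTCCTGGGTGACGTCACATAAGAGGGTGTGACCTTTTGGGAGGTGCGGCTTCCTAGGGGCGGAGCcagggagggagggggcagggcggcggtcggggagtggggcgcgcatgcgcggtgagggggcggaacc
The gap between the 2 Inpp4a peaks was 157 bp, and unlike at Tec the WT peak did not reach a promoter window.

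Windows with and without peaks differed in median base composition, with overlapping ranges. The 25 windows with a peak in both lists had a median of 66.0% G and C (39.3 to 79.7%) and 25 CpG dinucleotides (3 to 52), and the 22 windows with none had 54.2% (40.3 to 79.7%) and 7 (0 to 42). Over all promoter windows the medians were 62% and 23 with a peak in both lists, and 49% and 4 with none. GGGCGG, the GC box, was found on either strand in 22 of 29 member windows with a peak in at least 1 list and in 32 of all 51. Among all promoter windows it occurred in 35.7%, and among those with a peak in both lists in 69.3%. The 29 member windows include 4 with a peak of the KO list alone, so the 69.3% covers an unlike set. CCAAT occurred in 14 of 51 member windows (37.4% of all windows). Each of the other motifs searched was found in 1 or 2 of the 51 member windows, too few for a comparison with all windows. They were ETS CCGGAAG in 2 (8.86% of all windows), RUNX TGTGGTT in 1 (5.27%) and AP-1 TGANTCA in 1 (7.81%). TCF/LEF ATCAAAG was found in 2 (3.73%) and forkhead TGTTTAC in 2 (3.65%). The windows of Inpp4b, Pip4k2a and Prkca are shown because these genes held many peaks found in 1 list only while their starts were open in both. Capitals mark matches to GGGCGG and CCAAT on either strand, some of which overlap.
Inpp4b, chr8:81342312-81342611, plus strand: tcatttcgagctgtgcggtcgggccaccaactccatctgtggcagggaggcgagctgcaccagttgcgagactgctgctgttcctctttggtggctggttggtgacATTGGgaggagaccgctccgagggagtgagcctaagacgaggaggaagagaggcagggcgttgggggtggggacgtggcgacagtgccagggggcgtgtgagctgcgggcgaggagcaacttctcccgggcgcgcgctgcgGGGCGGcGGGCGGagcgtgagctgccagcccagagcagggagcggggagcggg
Pip4k2a, chr2:18998072-18998371, minus strand: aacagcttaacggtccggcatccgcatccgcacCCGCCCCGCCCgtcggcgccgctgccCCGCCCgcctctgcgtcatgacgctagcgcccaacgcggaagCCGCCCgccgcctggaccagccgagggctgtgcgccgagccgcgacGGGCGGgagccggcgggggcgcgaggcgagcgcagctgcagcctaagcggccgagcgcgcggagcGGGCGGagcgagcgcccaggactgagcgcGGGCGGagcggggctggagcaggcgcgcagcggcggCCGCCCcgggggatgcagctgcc
Prkca, chr11:108343839-108344138, minus strand: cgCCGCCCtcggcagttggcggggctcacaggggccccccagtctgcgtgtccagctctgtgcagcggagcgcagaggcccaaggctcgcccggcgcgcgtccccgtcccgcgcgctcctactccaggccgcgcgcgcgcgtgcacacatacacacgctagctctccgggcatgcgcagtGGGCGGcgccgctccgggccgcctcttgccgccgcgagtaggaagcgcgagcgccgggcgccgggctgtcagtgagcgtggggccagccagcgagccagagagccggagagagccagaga
A match describes letters in the window and says nothing of binding.

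Among the class I catalytic subunits, Pik3cd and Pik3cg encode the forms enriched in leukocytes, and Pik3ca and Pik3cb the broadly expressed ones. The group held 5 WT-only, 5 KO-only and 12 shared sites. Pik3cd had 2 KO-only peaks and no WT-only peak. They lay in the gene at chr4:149697979-149698171 (row 10.7%) and chr4:149696324-149696516 (row 21.4%), 0.633 and 2.29 kb downstream of an annotated start. Of the 75 KO-only peaks of the pathway, 5 fell in the first 25% of the KO list. Pik3cd held 2 of them, and the others lay at Itpr2, Plcg1 and Tec. Of the 88 WT-only peaks, 4 fell in the first 25% of the WT list. No share over all assigned peaks of either class was set beside these counts, so they do not set Pik3cd apart from the background. Of its 3 shared sites, the one starting at 149658069 stood at 20.7% in the WT list and 6.00% in the KO list, and the one starting at 149702608 at 33.9% and 17.0%. The remaining one, starting at 149663988, went the other way, at 55.1% and 62.7%. The surplus of 2 KO-only peaks at Pik3cd was the same under every other rule of sharing, assignment and list length tried. Because both peaks lay in the gene, a shorter reach or gene bodies alone could not remove them.

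Pik3cg had 3 WT-only and 2 KO-only peaks beside 4 shared sites. Its KO-only peaks, at chr12:32183081-32183273 and chr12:32202018-32202210, lay in the gene at rows 77.7% and 82.4%. Of its WT-only peaks, one lay in the gene at 32206780-32206998 (row 45.2%), and the other 2 lay 45.4 kb and 37.4 kb outside it, so the balance turned to 1 more KO-only peak when distant peaks were left out. Pik3ca had 1 peak of each kind, the KO-only one at row 40.7% and the WT-only one at 83.3%. Pik3cb had a single WT-only peak at 92.5%. The starts of Pik3ca (rows 2.66% and 3.52%) and Pik3cb (13.2% and 17.8%) were open in both lists.

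Regulatory subunits of the type encoded by Pik3r1, Pik3r2 and Pik3r3 hold the catalytic subunits inactive and recruit them to receptors. The regulatory subunit genes, Pik3r5 and Pik3r6 included, also held equal numbers, 7 WT-only and 7 KO-only peaks, with 21 shared sites. Pik3r1, the main regulatory subunit gene of T cells, carried 14 of the shared sites, 5 WT-only and 2 KO-only peaks. Of its WT-only peaks, 3 lay inside the gene at chr13:101697009-101697227, 101707432-101707650 and 101711434-101711652, at rows 25.1%, 25.9% and 30.6%. These 3 formed a cluster at -4.49, -14.9 and -18.9 kb from an internal annotated start (negative, upstream). The other 2 WT-only peaks, 91.7 and 14.2 kb outside the gene, stood at 85.1% and 75.6%. Its KO-only peaks, at 101681860-101682052 and 101745052-101745244, stood late, at 92.4% and 86.4%. Counting only the first 50% of each list left Pik3r1 with 3 WT-only peaks and no KO-only peak, while counting gene bodies alone reduced the surplus to 1. One distant shared site, 29.0 kb outside the gene, stood at 34.6% in the WT list and 76.6% in the KO list, and another, 98.7 kb away, at 80.5% and 53.0%.

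Pik3r5, which encodes a regulatory subunit that pairs with the Pik3cg product, had 3 KO-only peaks and 1 WT-only peak. The KO-only peaks at chr11:68436418-68436610 (row 50.2%) and 68465162-68465354 (77.6%) lay in the gene, and the remaining one, 68499143-68499335 (68.3%), lay 1.39 kb beyond it. The WT-only peak, 68498716-68498934 (98.1%), lay 208 bp from the latter. All 4 stood past the first 50% of their list, so this surplus was 0 there. The neighbouring Pik3r6, another partner of the Pik3cg product, had 1 peak in all, KO-only at 64.4%. Pik3r3 had 1 peak of each kind, both late, and Pik3r2 had only its 2 shared sites.

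Pik3ap1 encodes an adaptor that links receptors to PI3K, and Pik3ip1 a membrane protein that inhibits it. Pik3ap1 had 3 WT-only peaks at rows 69.9%, 81.8% and 99.8% and 2 KO-only peaks at 72.9% and 84.1%, all inside the gene. Its 5 shared sites all stood earlier in the KO list, including the start (85.4% against 67.7%) and the site starting at chr19:41345426 (79.7% against 44.1%). Pik3ip1 had 2 shared sites and no other peak, both early: 5.20% and 11.8% in the WT list, 1.97% and 9.45% in the KO list. The class II and III genes Pik3c2a and Pik3c3, whose enzymes make other phosphoinositides for membrane traffic, had 1 WT-only peak each, at 82.4% and 86.6%. Of their 8 shared sites, 3 stood at least 20 points earlier in the WT list.

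The inositol lipid phosphatases act against PI3K by removing phosphates from its products. Together they held 17 WT-only and 13 KO-only peaks, a KO-only share of 43.3% (25.5 to 62.6%). This balance rested on Inpp4b, and the group turned to 3 more KO-only peaks when each list was limited to its first 50%, and to 2 more when peaks were given to whichever gene end lay closest. Inpp5d encodes SHIP1, the main such phosphatase of blood cells. It had 2 KO-only peaks, no WT-only peak and 4 shared sites. The KO-only peaks lay in the gene at chr1:87621558-87621750 (row 33.5%), 1.34 kb downstream of a start, and at 87640513-87640705 (41.3%). As at Pik3cd, both lay in the first 50% of the list, and the surplus of 2 held under every other rule tried. Both lay in the gene, 1016 and 3152 bp from the nearest WT peak. The 500 bp gap and the shorter reach therefore could not remove them. The shared site at the start of Inpp5d stood at 30.5% in the WT list and 47.8% in the KO list.

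Inpp4b, a gene of 792 kb, had 13 WT-only peaks, 7 KO-only peaks and 12 shared sites, the largest WT-only surplus of the 38 genes. All 20 peaks found in 1 list only lay inside the gene, between chr8:81484054 and 82029271, the nearest of them 142 kb from the annotated start. The earliest were a facing pair, a WT-only peak at 81636419-81636637 (row 27.1%) and a KO-only peak at 81636180-81636372 (43.3%), only 46 bp apart. Most of the others stood late: in the first 50% of each list Inpp4b had 1 WT-only and 1 KO-only peak, and no surplus. None of them had an end of Inpp4b as the closest gene end within 100 kb, so giving peaks to the closest gene end left Inpp4b without any. Its shared sites leaned the same way as the counts, with a median difference of -13.2 points (WT position minus KO position). The site starting at 81619035 stood at 30.1% in the WT list and 72.4% in the KO list, and 4 of the 12 were at least 20 points earlier in WT. None was 20 points earlier in KO.

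Inpp4a had 3 peaks of each kind and 1 shared site. Beside the pair at its start, a second facing pair lay 8 kb into the gene, with a KO-only peak at chr1:37307819-37308011 (row 41.0%) and a WT-only peak at 37308191-37308409 (81.9%). The remaining peaks were a WT-only peak at 37310037-37310255 (66.2%) and a KO-only peak 13.1 kb outside the gene (75.0%). Its shared site stood at 91.8% in the WT list and 52.1% in the KO list. Inpp5f had 1 peak of each kind, at 75.3% (WT-only) and 87.4% (KO-only), and a shared site that stood at 36.6% in WT and 76.3% in KO.

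Phlpp1 and Phlpp2 encode phosphatases that act on Akt itself. Phlpp1 had 5 WT-only, 5 KO-only and 9 shared sites. A KO-only peak at chr1:106172503-106172695 (row 25.1%) lay 0.730 kb past its start, the only peak found in 1 list at a Phlpp1 gene end. The other KO-only peaks stood at 56.9% to 98.8%, and of the WT-only peaks only 1 stood before 50%, at 106203941-106204159 (45.1%). A facing pair of 8 bp, at 106389686-106389904 (WT) and 106389913-106390105 (KO), lay near the far end of the gene. Phlpp2 had 2 shared sites and no other peak.

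Downstream of PIP3, Akt1 and Akt2 encode Akt kinases, Sgk1 and Sgk3 related kinases, and Gsk3b a kinase that Akt inhibits. These 5 genes held 6 WT-only, 4 KO-only and 17 shared sites. Akt1 showed 2 shared sites, within 1 kb of each gene end, and no other peak. Akt2 had a shared peak over its start (14.1% and 16.2%), a KO-only peak at 0.358 kb past it (chr7:27591814-27592006, row 31.1%) and a WT-only peak at 0.990 kb past it (27592433-27592651, 39.3%). Neither Akt gene had a surplus of peaks in 1 list. Gsk3b had the earliest peak of the pathway, at its start, in row position 0.157% of the WT list and 0.274% of the KO list, and 1 KO-only peak at 81.3%.

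Sgk1 had 2 peaks of each kind and 6 shared sites. Its KO-only peaks were at chr10:21907140-21907332 (row 48.0%) and 21975321-21975513 (61.4%), and its WT-only peaks at 21911503-21911721 (50.2%) and 22007698-22007916 (84.9%). Of its 6 annotated start windows, the first (46.8% and 52.8%) and the last (13.0% and 14.9%) held a peak in both lists and the other 4 none. Sgk3 had 3 WT-only peaks, at chr1:9805869-9806087, 9823741-9823959 and 9833358-9833576, and no KO-only peak. They stood at 83.1%, 55.4% and 83.1%, so none fell in the first 50% of the list. All 4 shared sites of Sgk3 stood earlier in the WT list, with a median difference of -21.2 points. Sgk3 had no promoter window, and the site at its gene end stood at 38.6% (WT) and 62.5% (KO). The gene listed as Pdk1 is, in mouse, a pyruvate dehydrogenase kinase of glucose metabolism and not the phosphoinositide-dependent kinase of the same short name, whose gene is Pdpk1. Pdk1 had 1 WT-only peak at 83.2% and 3 shared sites, and Pdpk1, which is no member, 1 WT-only, 2 KO-only and 3 shared.

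Phospholipase C genes held few peaks found in 1 list only, 3 WT-only and 2 KO-only. Plcg1, the form activated by the T cell receptor, had a KO-only peak at chr2:160733299-160733491, 2.09 kb past its start and in the first 25% of the list (row 24.1%), and a WT-only peak at 70.8%. Plcg2, the form prominent in B cells, had 1 KO-only peak 16.4 kb outside the gene (63.5%). Both of its shared sites stood earlier in the KO list. The one starting at chr8:117548563 stood at 48.6% in WT and 7.34% in KO. The one near its start, just outside the promoter window, stood at 80.2% and 53.8%. Plcb1, activated through G proteins, had 2 WT-only peaks, at chr2:135330285-135330503 and 135439334-135439552, no KO-only peak and no peak at its start. Both WT-only peaks stood late, at 80.9% and 94.7%.

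The IP3 receptors release calcium from the endoplasmic reticulum, and Itpkb encodes a kinase that converts IP3 to IP4. This was the role group with the largest KO-only surplus, 20 KO-only against 13 WT-only peaks. Its KO-only share of 60.6% had an interval of 42.1 to 77.1%, which includes the 45.4% of all assigned peaks. Itpr1 had 9 KO-only peaks, 4 WT-only peaks and 17 shared sites. The earliest KO-only peak stood at chr6:108540551-108540743 (row 35.0%), between shared sites near the end of the gene. Pairs of KO-only peaks lay at 108309902-108310094 and 108314002-108314194, both at 57.6%, and at 108442438-108442630 (52.3%) and 108445126-108445318 (53.3%). A further pair, 108570525-108570717 and 108570950-108571142, lay 19.5 and 19.9 kb outside the gene, and without it the surplus fell from 5 to 3. The 2 remaining KO-only peaks stood at 62.0% and 75.3%. Its WT-only peaks lay at 108340751-108340969 (49.7%), 108476813-108477031 (57.6%), 108488374-108488592 (61.7%) and 108417536-108417754 (86.0%). Nearly all these peaks stood past 50%, and 1 of each kind lay in the first 50%. Itpr1 had no promoter window, and the peak at its gene end was among the earliest of the pathway, at 2.51% and 3.36%.

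Itpr2 had 6 KO-only peaks, 5 WT-only peaks and 12 shared sites. Its earliest KO-only peak, at chr6:146221428-146221620 (row 17.6%), lay beside a shared site that stood at 33.2% in the WT list and 11.4% in the KO list. The other KO-only peaks stood at 55.9% to 88.7% and the WT-only peaks at 57.1% to 99.4%. Among shared sites, the one starting at 146185579 stood at 93.7% in WT and 24.1% in KO, and 4 of the 12 were at least 20 points earlier in KO. Itpr3 had 1 WT-only peak at a gene end, chr17:27056155-27056373 (55.9%), 0.738 kb before the gene, and 1 shared site at its start.

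Itpkb had 5 KO-only peaks, 3 WT-only peaks and 9 shared sites, and unlike the long receptor genes it kept most of them in the upper part of the lists. The KO-only peaks were at chr1:180388719-180388911 (row 25.1%), 180366508-180366700 (28.4%), 180417271-180417463 (44.9%), 180371051-180371243 (47.8%) and 180312908-180313100 (71.2%). The WT-only peaks were at 180359405-180359623 (15.5%, the earliest WT-only peak of the pathway), 180401722-180401940 (27.1%) and 180303679-180303897 (36.9%). In the first 50% of each list 4 KO-only and 3 WT-only peaks were left, so the surplus was 1. The KO-only peak at row 71.2% and the WT-only peak at row 36.9% lay outside the gene, before its start. KO-only and WT-only peaks were interspersed along the gene and the stretch before it, with shared sites between them.

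**Figure D2:**
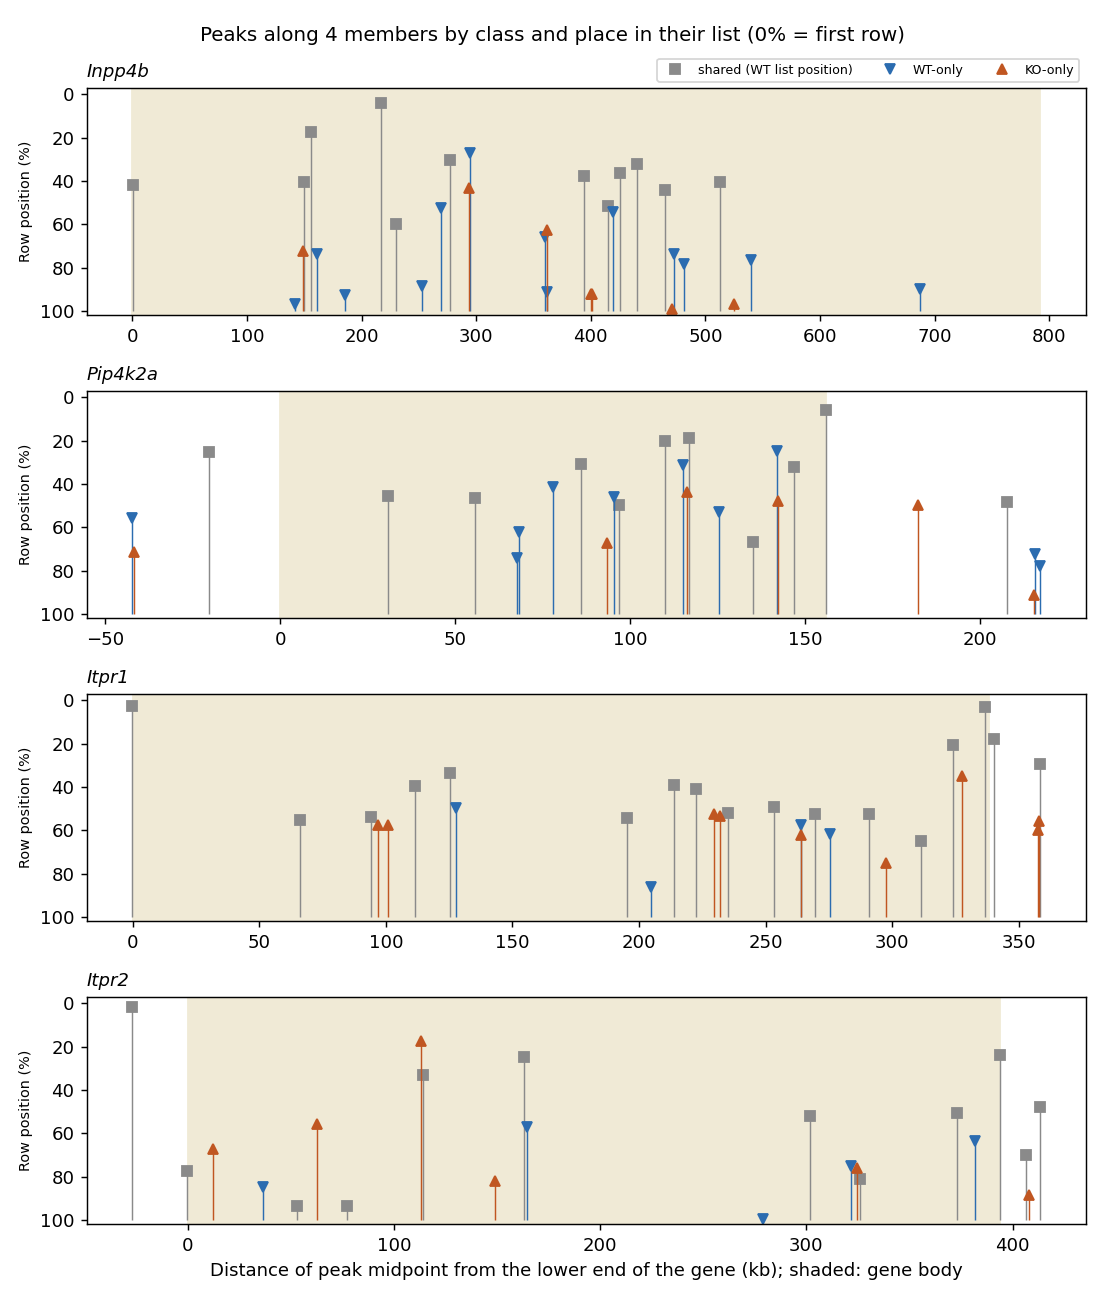
Peaks along Inpp4b, Pip4k2a, Itpr1 and Itpr2 by distance of the midpoint from the lower end of the gene (kb) and row position in the list (%, 0% at the top is the first row), with shared sites as grey squares at their WT position, WT-only peaks as blue downward triangles, KO-only peaks as orange upward triangles, and the gene body shaded. In all 4 genes the earliest peak is a shared site, and the start of Inpp4b carries a shared site only.

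The PIP kinases make the lipid on which PI3K and phospholipase C act. They held 13 WT-only and 7 KO-only peaks, a KO-only share of 35.0% (15.4 to 59.2%). Pip4k2a had 10 WT-only peaks, 6 KO-only peaks and 11 shared sites. Its earliest WT-only peaks were chr2:18984248-18984466 (row 24.8%), 18957467-18957685 (31.4%), 18920297-18920515 (41.2%) and 18937736-18937954 (45.9%), and its earliest KO-only peaks 18958598-18958790 (43.8%), 18984534-18984726 (47.8%) and 19024487-19024679 (49.6%). In the first 50% the surplus shrank from 4 to 1. Pip4k2a also had 3 facing pairs, with gaps of 10, 67 and 162 bp. Of its shared sites 4 stood at least 20 points earlier in the WT list, with a median difference of -16.0 over all 11, and the site starting at 18873001 stood at 45.6% (WT) and 80.4% (KO). The start itself stood early in both lists, at 5.96% and 7.70%.

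Pip5k1c had 3 WT-only peaks, at chr10:81303690-81303908, 81304943-81305161 and 81309615-81309833, at rows 78.4%, 79.3% and 87.4%, and no KO-only peak. Its shared sites went the other way. The one starting at 81297851 stood at 44.9% in WT and 20.9% in KO, the one starting at 81298703 at 65.2% and 34.4%, and the start at 6.34% and 3.36%. Counts of peaks and positions of shared sites thus pointed in opposite directions at this gene. Pip5k1b had 1 KO-only peak at 82.8% and 4 shared sites.

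Tec had 4 WT-only, 2 KO-only and 2 shared sites. Beside the pair at its start, the WT-only peaks were at chr5:72761252-72761470 (row 46.3%), 72812923-72813141 (62.9%) and 72796257-72796475 (84.6%), and the KO-only peak at 72811065-72811257 (87.2%). A shared site starting at 72817840 stood at 32.5% in WT and 71.4% in KO. The related kinase gene Txk lies next to Tec, at chr5:72695978-72752992, and had 5 KO-only peaks, 1 WT-only peak and 2 shared sites, the opposite balance. Its KO-only peaks at 72749013-72749205 and 72750101-72750293 stood at 26.0% and 29.9%, and in the first 50% Txk had 3 KO-only and no WT-only peak, against 1 and 2 at Tec. Whether the 2 neighbours differ beyond counting error was not tested.

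Protein kinase C genes Prkca and Prkcb, whose enzymes respond to diacylglycerol and calcium, had 9 WT-only and 8 KO-only peaks. Prkca had 6 of each and 8 shared sites, with all 12 inside the gene. Of its WT-only peaks, 2 stood in the first 50%, at chr11:108273730-108273948 (21.2%) and 108271329-108271547 (36.4%), close to each other. The other 4 stood at 52.0% to 78.4%. Of its KO-only peaks 1 did, at 108283002-108283194 (48.1%), and the other 5 stood at 56.7% to 99.7%. Prkcb had 3 WT-only peaks at 77.3% to 88.4%, 2 KO-only peaks at 63.5% and 68.9%, and a start open in both lists (8.03% and 12.4%).

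**Figure D3:**
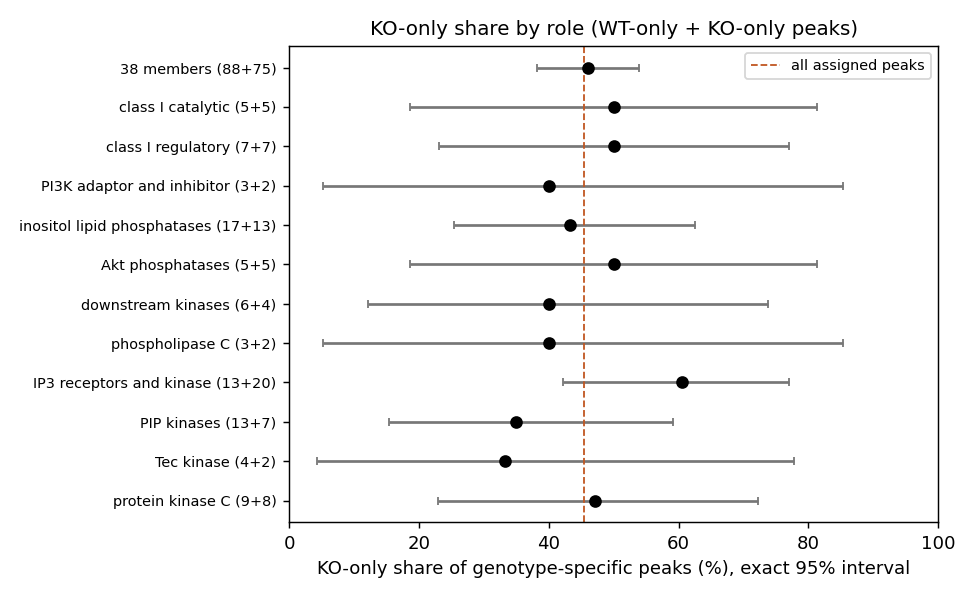
KO-only share of the peaks found in 1 list only (%, horizontal axis) for the 38 genes and for each role group with at least 5 such peaks, with exact 95% intervals and the number of WT-only and KO-only peaks in brackets; the dashed line is the share over all assigned peaks (45.4%). The interval of every group shown includes the dashed line, with the IP3 receptors and kinase at 60.6% furthest to the right and the Tec kinase furthest to the left.

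Shared sites allow a second comparison, of their place in the 2 lists. Of the 178 shared sites, 13 (7.30%) stood at least 20 points earlier in the KO list, against 5.68% of all shared peaks. Another 24 (13.5%) stood at least 20 points earlier in the WT list, against 10.7%. Both shares were near the background. The members differed among themselves: Inpp4b and Pip4k2a each had 4 sites that far earlier in WT and none in KO, and Itpr2 had 4 in KO and none in WT. The median difference over the 178 sites, -1.87 points, was close to that over all assigned peaks, -2.55.

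**Figure D4:**
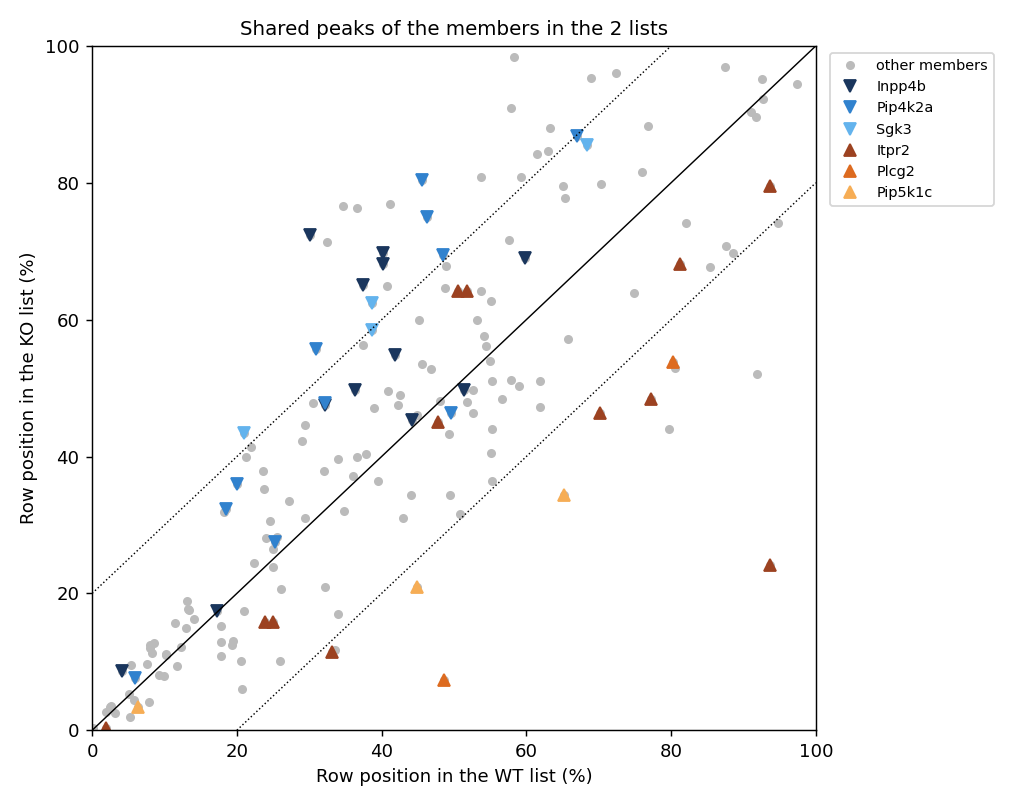
Row position of each of the 178 shared sites in the WT list (horizontal axis, %) and the KO list (vertical axis, %), with 6 members coloured and the others grey; the solid line marks equal positions and the dotted lines a difference of 20 points. Inpp4b, Pip4k2a and Sgk3 (blue, downward triangles) lie mostly above the solid line, earlier in WT, and Plcg2 and Pip5k1c (orange, upward triangles) below it, with Itpr2 on both sides and its outermost site at 93.7% and 24.1%.

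The peaks found in 1 list only lay mostly within the gene bodies and late in the lists. Inside the gene, more than 1 kb from any gene end, were 83.0% of the members' WT-only peaks and 81.3% of their KO-only peaks, against 51.4% and 47.3% for all assigned peaks of those classes. At a gene end were 5 of 88 WT-only peaks (5.68%, 1.87 to 12.8%), where all WT-only peaks gave 14.4%, and 4 of 75 KO-only peaks (5.33%, 1.47 to 13.1%), where all KO-only peaks gave 18.3%. Shared sites showed the same pattern, with 20.2% at a gene end (14.6 to 26.9%) against 36.4%. Gene length moved with the number of peaks: across the 38 genes the Spearman correlation of length was 0.557 with peaks found in 1 list and 0.533 with shared sites, given as a description. The part of gene length in these shares was not tested.

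By row position, the members' WT-only peaks had a median of 74.7% (interval 64.1 to 78.4%) and their KO-only peaks 63.5% (56.7 to 71.2%), against 76.1% and 71.3% for all. Shared sites stood at a median of 40.2% in the WT list and 45.7% in the KO list, against 37.5% and 41.3% for all shared peaks. Within the first 50% of their lists lay 20 WT-only peaks (22.7%, against 18.5% of all assigned WT-only peaks) and 23 KO-only peaks (30.7%, against 26.8%). Of 35 members with a peak there, Pik3cd and Inpp5d had a surplus of at least 2 KO-only peaks, which 1.58% of all genes with a peak there had, and Pik3r1 alone a surplus of at least 2 WT-only peaks, which 1.14% had. These surpluses rested on 2 KO-only peaks at Pik3cd, 2 KO-only peaks at Inpp5d and 3 WT-only peaks at Pik3r1, with no value per sample. Members held more sites than most genes over the full lists (median 5.5 against 2), and the shares over all genes do not allow for that.

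Some of the peaks classed as found in 1 list had a near neighbour in the other. A peak of the other list lay within 500 bp of 12 WT-only peaks (13.6%, against 20.7% of all) and of 17 KO-only peaks (22.7%, against 28.8%). Of these, 11 WT-only and 11 KO-only peaks formed facing pairs, with gaps of 4 to 208 bp, at Itpr1, Phlpp1, Pip4k2a, Tec, Inpp4b, Inpp4a and Pik3r5. At these places both genotypes had a peak, and the usual widths of 219 and 193 bp set how far such peaks could reach.

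Outside the 38 genes, 61 other genes of the same pathways held 71 WT-only, 66 KO-only and 164 shared sites, a KO-only share of 48.2% (39.6 to 56.9%). KO-only peaks outnumbered WT-only ones in 17 of them, the reverse held in 19, and 25 had equal numbers, beside the shares of 20.3%, 26.9% and 52.8% over all genes with a peak. Plcb4, a relative of Plcb1, had 6 WT-only peaks and no KO-only peak, with 1 of the 6 in the first 50% (chr2:135862929-135863147, row 36.3%). Dgkd, a diacylglycerol kinase gene, had 3 WT-only peaks, all in the later 50% of the list, and no KO-only peak. On the other side were Prkcz, with 4 KO-only and no WT-only peak, and Mtmr3, a phosphatase of inositol lipids, with 3 and none, all in the later 50% of the list. Prkch, of the protein kinase C family, held 9 WT-only against 5 KO-only peaks, but 5 of each in the first 50%.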

How the data were processed

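ATAC-seq of sorted Treg cells was deposited as 1 peak list per genotype for 3 samples each. The build was mm10, per the submitters' processing notes, which also name HISAT2 2.1.0, HOMER 4.10.1, SAMtools 1.3, deepTools, FastQC, cutadapt 1.12 and Trim Galore 0.4.2. How samples were merged, which threshold made a peak and whether reads were shifted for the transposase is not given in the sources. The score that the authors deposited is 1 in every row, so it holds no height or depth. The depth behind a peak is therefore unknown.

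Peaks were classed by overlap of at least 1 bp and assigned with RefSeq coordinates (GRCm38.p6, the coordinates of mm10) in Python 3.11.15 with pandas 2.3.3 and scipy 1.17.1. Figures used matplotlib 3.10.9. Overlap and assignment were checked on 800 and 400 simulated peaks against bedtools 2.31.1, with 0 differences. A gene end is within 1 kb of either end of any gene. No test was made, because the lists hold no value per sample. Shares carry exact Clopper-Pearson 95% intervals for counting error only.

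The members, pathway lists and rules were chosen with earlier results of these data known. Members described peak by peak had at least 4 peaks found in 1 list, a difference of at least 2, or different numbers of peaks at gene ends. At the members with most peaks, coordinates are given for the leading ones. Other pathway genes were named at a difference of at least 3, and Pdpk1 for its name. Alternatives changed the overlap, the reach, the gene set, the list length, the gene-end window and the members. A marker gene of the cell type check is not reported here.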

Additional observations from a re-analysis of the deposited data

How the results depend on the processing

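No paired analysis was possible because each group has 1 peak list and no value per sample, and for the same reason no sample could be left out. The KO-only share of the members' peaks ran from 43.3% (peaks with a gap of at most 500 bp counted as shared, all assigned peaks 42.7%) to 53.5% (first 50% of each list, all 54.6%), and from 44.0 to 47.6% without 1 member in turn. Results that moved beyond their counting error were, with each list limited to its first 50%, the counts (20 WT-only, 23 KO-only, 115 shared) and the percentages at a gene end (15.0% of WT-only, 17.4% of KO-only), and, with the 500 bp gap, the percentage of WT-only peaks at a gene end, 1.32%. By construction, fewer peaks enter the first setting, and the 500 bp gap counts some WT-only and KO-only peaks as shared. The balance of Pik3cg turned to 1 more KO-only peak within 10 kb, in gene bodies alone and with noncoding genes included. In the first 50% the balances of inositol lipid phosphatases, downstream kinases and phospholipase C turned to 3, 1 and 1 more KO-only peaks, and with the gene of the nearest end that of the inositol lipid phosphatases turned to 2 more. The cause was not tested. Of 571 values answering a comparison, 565 stayed within counting error or, for counts, within 1.5 times, and 281 of 360 differences of single genes and role groups kept their direction within 1.5 times. Leaving out Inpp4b and Itpr1 together, chosen after seeing the data, gave 45.4%.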
